A study of Mus musculus with 6 samples.

Results

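Slc6a14, Slc1a5, Slc7a2 and Slc15a3 encode membrane carriers for amino acids and small peptides, and their transcripts were compared between uteri with floxed and with deleted Stat3. The members were every probe set annotated with the symbol of one of these 4 genes. There were 5 such probe sets, 2 for Slc6a14 and 1 for each other gene, among 1382 probe sets in all, and the 4 genes were among 987 genes with a single symbol. RNA came from whole uteri of female mice at 3.5 days post coitum, with 3 Affymetrix arrays from Stat3 f/f mice (floxed alleles) and 3 from Stat3 d/d mice (deleted alleles). The Cre driver, the cells in which the deletion occurs, the strain, the age and any pooling of animals are not stated in the labels. Nothing in the labels states that each array is a separate animal, so the p-values rest on a spread between arrays that could be technical only.

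Amino acid carriers of the SLC (solute carrier) families differ in what they carry and in what drives them. SLC6A14 concentrates neutral and cationic amino acids in the cell with sodium and chloride, and is found at the apical face of many epithelia. SLC1A5 (ASCT2) exchanges glutamine and other neutral amino acids in a sodium-dependent way. SLC7A2 (CAT-2) carries the cationic amino acids arginine, lysine and ornithine without sodium, and supplies arginine to nitric oxide synthase and arginase. SLC15A3 (PHT2) sits in the membrane of lysosomes and endosomes, moves histidine and small peptides out with protons, and is best known in macrophages and dendritic cells. In the uterus before implantation, amino acid carriers of the epithelium help set the composition of the luminal fluid around the embryo.

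The table is a selection made on the comparison itself. Every one of its 1382 probe sets differs between the arithmetic means of the groups by a factor of 1.5 or more, with no overlap of the groups, and 100% passed an adjusted p of 0.05 in limma, 67.4% of all being higher in Stat3 d/d. A pass or a gap between groups was therefore fixed by the presence of a probe set in the table and is given as a description. Carriers outside the table were not analysed here and cannot be called unchanged. Intensities ran from 2.47 to 4352, and the median over the table was 23.7 to 26.0 on the Stat3 f/f arrays and 34.2 to 35.7 on the Stat3 d/d arrays. The median change of all probe sets was 0.70 on the log2(intensity + 1) scale, Stat3 d/d minus Stat3 f/f, which is the scale and the direction of all changes below. The number of arrays limits the precision. Stat3 itself was lower on every Stat3 d/d array, at 262, 356 and 243 in Stat3 f/f (replicates 1, 2 and 4) against 121, 101 and 131 in Stat3 d/d (replicates 1, 2 and 3). Its second probe set read 237, 310 and 208 against 103, 104 and 114. The position of these probe sets relative to the deletion was not looked at, so they check the labels only in part. Of the tissue's defining markers, the table held 2 of 12 listed for epithelium, 1 of 11 for stroma and 0 of 7 for smooth muscle, so the uterine label could be checked only in small part.

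Of the 4 genes, RefSeq's promoter table (GRCm38.p6) held Slc6a14, the gene with the largest change by its brighter probe set. The 250 bases before its start lie at chrX:21714650-21714899 on the plus strand and are shown because Slc6a14 is the gene on which the results turn most; capitals would mark a motif match, and there is none.

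Slc6a14 upstream: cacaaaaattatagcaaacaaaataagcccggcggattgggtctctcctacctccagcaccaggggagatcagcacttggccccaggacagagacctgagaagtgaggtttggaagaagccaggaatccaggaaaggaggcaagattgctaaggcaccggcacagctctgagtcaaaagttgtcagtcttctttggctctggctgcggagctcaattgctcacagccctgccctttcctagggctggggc

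The window was searched on both strands for 4 motifs. The STAT motif was TTCNNNGAA, which reads alike on both strands. The interferon-stimulated response element was taken as a pair of GAAA separated by 2 bases. The amino acid response element was TGATGNAAN, and the NF-kB motif was GGG, then any 2 bases, then TTTCC. Slc6a14 had 0 matches to each, and among 32851 RefSeq promoters of the same length 7.02% held the STAT motif, 2.98% the interferon element, 3.44% the amino acid element and 1.41% the NF-kB motif. The absence says only that these letters are not in this window. GC content was 54.0%, beside a median of 52.4% over all these promoters.

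Transcripts of all 4 genes were higher in Stat3 d/d uteri, on each of the 5 probe sets, beside 67.4% of all probe sets in the table. The largest change was in Slc6a14, the carrier of neutral and cationic amino acids, at 2.48 on its brighter probe set and 0.92 on the other. Slc1a5, the glutamine exchanger, lay between these at 1.31. Slc7a2, the arginine carrier, changed by 0.77, and Slc15a3, the lysosomal peptide and histidine carrier, by 0.60. The median change of the 5 probe sets was 0.92, and that of all probe sets higher in Stat3 d/d was 0.93.

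**Figure D1:**
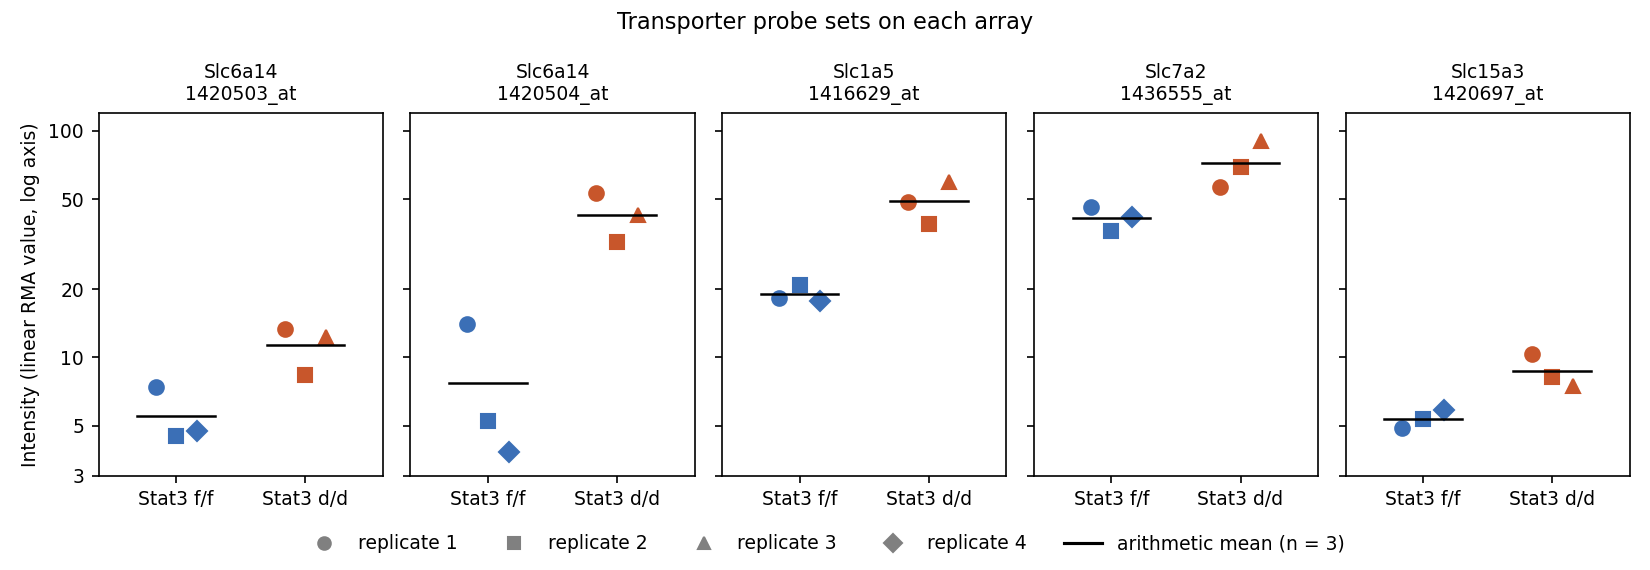
Intensity of the 5 transporter probe sets on each array (linear RMA values on a log axis), with Stat3 f/f in blue and Stat3 d/d in orange, marker shape for the replicate number and a black line for the arithmetic mean of 3 arrays. The Slc6a14 probe set 1420504_at goes from 3.81 to 14.1 in Stat3 f/f to 32.2 to 53.0 in Stat3 d/d, while Slc15a3 moves between 4.89 and 10.3.

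Slc6a14 was read by 2 probe sets, which moved the same way by different amounts. On 1420504_at it read 14.1, 5.22 and 3.81 in Stat3 f/f replicates 1, 2 and 4, and 53.0, 32.2 and 42.5 in Stat3 d/d replicates 1, 2 and 3. The groups did not overlap, and the lowest Stat3 d/d array was 2.28 times the highest Stat3 f/f array. The means were 7.71 ± 5.58 and 42.6 ± 10.4 (SD, n = 3 arrays each), and the log2 change was 2.48 (SE 0.37, limma adjusted p = 0.000257), or 5.57-fold. Among the 931 probe sets that were higher, this change ranked 43.

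The other Slc6a14 probe set, 1420503_at, was dim in both groups, while 1420504_at was dim in Stat3 f/f only. On 1420503_at the readings were 7.38, 4.49 and 4.74 in Stat3 f/f, and 13.3, 8.36 and 12.3 in Stat3 d/d. The gap between the groups was narrow, with the lowest Stat3 d/d array at 1.13 times the highest Stat3 f/f array. The change was 0.92 (SE 0.23, limma adjusted p = 0.00363), rank 477 among the 931. Without the pseudocount of 1, which lowers the change of dim probe sets, the values of 1420503_at and 1420504_at were 1.04 and 2.67. With a pseudocount of 16 they were 0.34 and 1.31, so the size of the Slc6a14 change depends on how dim readings are treated. Averaged over both probe sets, with the pseudocount of 1, Slc6a14 changed by 1.70.

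The spread of Slc6a14 in Stat3 f/f came mostly from 1 array on both probe sets. Stat3 f/f replicate 1 was the highest, and on 1420504_at it lay 0.98 above the group mean on the log2 scale, while the median deviation of all probe sets on that array was 0.04. In Stat3 d/d both probe sets were highest in replicate 1 and lowest in replicate 2. Without Stat3 f/f replicate 1 the change on 1420504_at was 2.97, and without Stat3 f/f replicate 4, the lowest array, 2.14.

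Slc1a5 varied little between the Stat3 f/f arrays, 1.17-fold from lowest to highest. Its probe set 1416629_at read 18.3, 20.8 and 17.8 in Stat3 f/f, and 48.3, 38.8 and 59.6 in Stat3 d/d. Every Stat3 d/d array was well above the Stat3 f/f arrays, the lowest being 1.87 times the highest Stat3 f/f array, while the Stat3 d/d arrays differed up to 1.53-fold among themselves. The means were 18.9 ± 1.59 and 48.9 ± 10.4 (SD, n = 3), and the change was 1.31 (SE 0.19, limma adjusted p = 0.000242), or 2.47-fold. It ranked 233 among the 931 higher probe sets, and leaving out each array gave 1.16 to 1.46.

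Slc7a2 varied 1.28-fold between the Stat3 f/f arrays and 1.6-fold between the Stat3 d/d arrays. Its probe set 1436555_at read 46.2, 36.0 and 41.5 in Stat3 f/f, and 56.5, 69.2 and 90.4 in Stat3 d/d. The groups lay close together, with Stat3 d/d replicate 1 at 1.22 times the highest Stat3 f/f array, and replicate 3 was the highest. The means were 41.2 ± 5.11 and 72.0 ± 17.1 (SD, n = 3), with a change of 0.77 (SE 0.20, limma adjusted p = 0.00483), or 1.71-fold. Without Stat3 d/d replicate 3 the change was 0.60, and without Stat3 d/d replicate 1 it was 0.93. The gene gives a high-affinity and a low-affinity form of the carrier by alternative splicing, and which of them this probe set reads was not examined.

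Slc15a3 had the smallest change of the 4 genes, with readings near the bottom of the table's range in both groups. Its probe set 1420697_at read 4.89, 5.33 and 5.85 in Stat3 f/f, and 10.3, 8.19 and 7.51 in Stat3 d/d. The groups did not overlap, with a gap of 1.28 times, and Stat3 d/d replicate 1 was the highest. The means were 5.36 ± 0.481 and 8.66 ± 1.44 (SD, n = 3), a ratio of 1.62, just above the 1.5 that every probe set in the table reaches. The change was 0.60 (SE 0.17, limma adjusted p = 0.00739), rank 846 among the 931 higher probe sets, and below the 0.70 median of all probe sets.

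**Figure D2:**
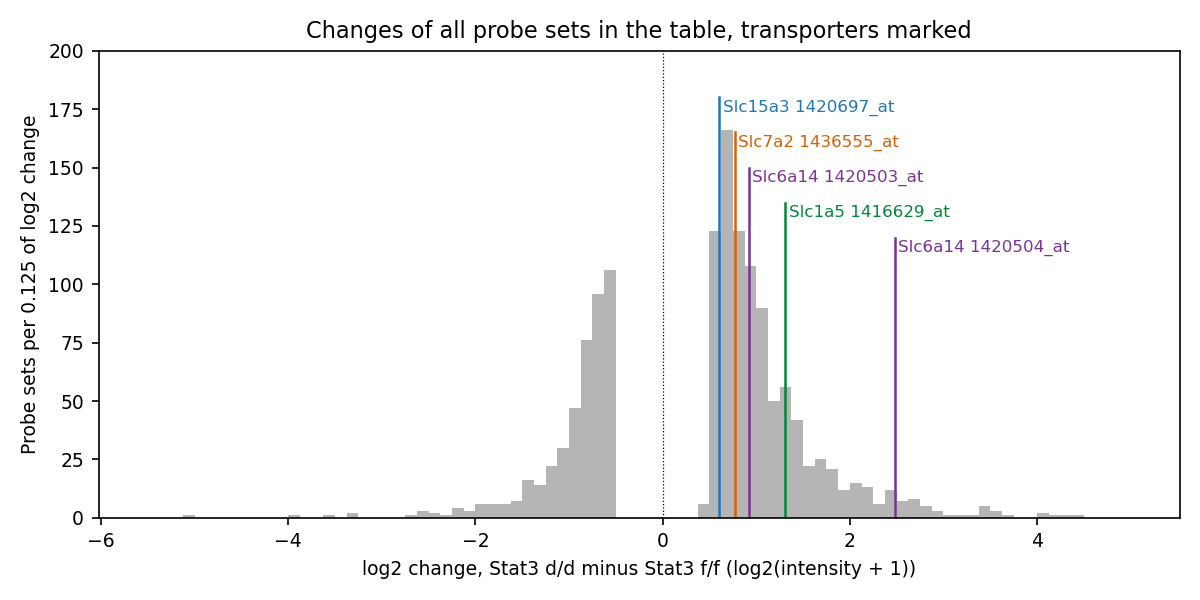
Histogram of the log2 change (Stat3 d/d minus Stat3 f/f) of all 1382 probe sets, with lines for the 5 transporter probe sets. The gap around 0 shows the selection of the table; Slc15a3 at 0.60 and Slc7a2 at 0.77 stand in the tallest part of the rises, and Slc6a14 1420504_at at 2.48 in the tail.

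How firmly the 4 genes were called depended on the scaling between arrays. Once arrays had been centred on their medians, 2 of the 5 probe sets were still higher past the threshold, beside 30.5% of all probe sets, and 2 after quantile normalization, beside 31.5%. These were Slc6a14 1420504_at (2.01 and 2.05) and Slc1a5 (0.84 and 0.85). Slc7a2 no longer passed, at 0.30 (adjusted p = 0.208, limma) and 0.34 (0.167). Nor did Slc15a3, at 0.13 (0.505) and 0.15 (0.450), or Slc6a14 1420503_at, at 0.45 (0.0849) and 0.48 (0.0766). The median change of all probe sets was 0.24 and 0.25 under these scalings, so Slc15a3 lay below it and the other 4 above. The right scaling cannot be read from a selected table.

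The number of tests mattered in the same way. With 45000 assumed tests, roughly the content of such an array, Slc1a5 (adjusted p = 0.00788, limma) and Slc6a14 1420504_at (0.00837) passed, beside 28.0% of all probe sets called higher. Slc6a14 1420503_at (0.118), Slc7a2 (0.157) and Slc15a3 (0.241) did not.

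**Figure D3:**
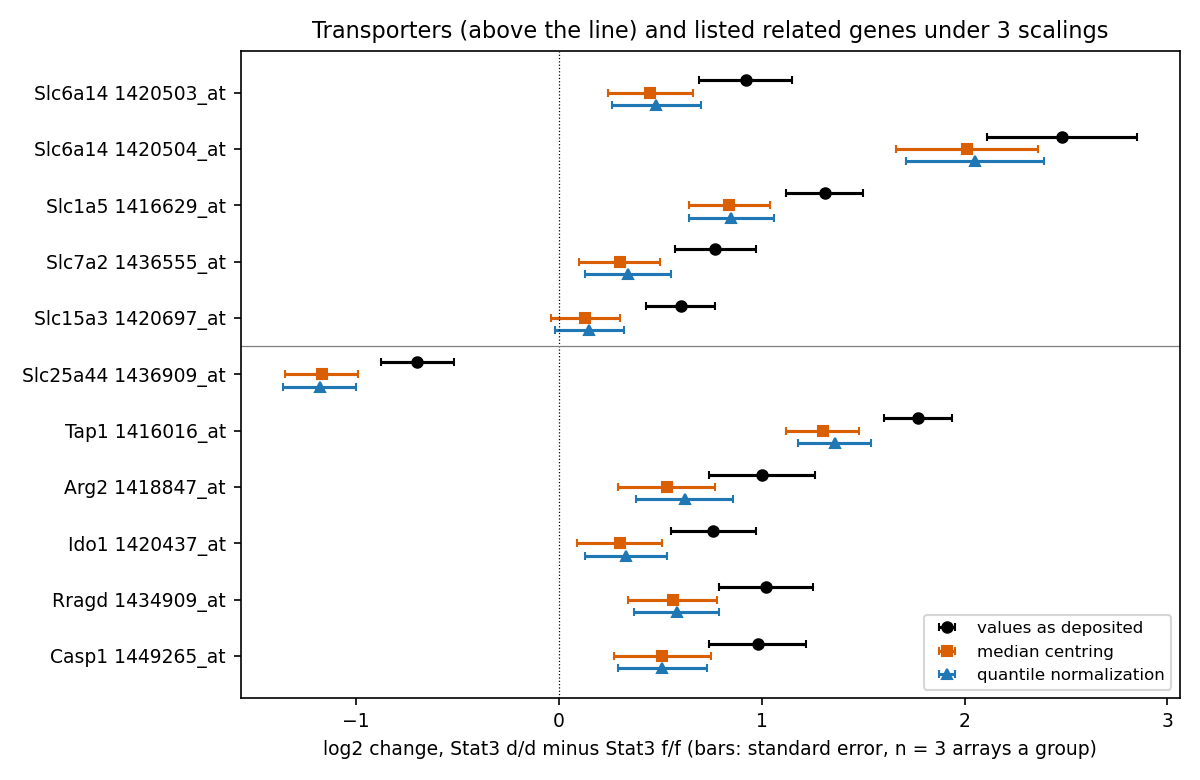
Log2 change with its standard error (3 arrays a group) for the 5 transporter probe sets and, below the line, 6 listed related genes, from values as deposited (black), after median centring (orange) and after quantile normalization (blue). Slc6a14 1420504_at and Slc1a5 stay at 0.84 or more, Slc15a3 goes from 0.60 to 0.13 and 0.15, and Slc25a44 lies below 0 throughout.

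Whether the genes changed by different amounts was asked from the ratio of 2 probe sets within each array, which no scaling factor common to an array's probe sets moves except through the pseudocount. This comparison was chosen after the values were seen. Of 10 pairs, 4 had groups that did not overlap and 6 had groups that did, beside 34.2% without overlap among all 432915 pairs of probe sets that were both higher in Stat3 d/d, so the count is near that background. With 3 arrays against 3 the two-sided exact permutation test cannot go below p = 0.10, and over the 10 pairs the smallest Benjamini-Hochberg adjusted p was 0.25, so no pair could pass. Slc6a14 1420504_at changed by 1.71 more than Slc7a2 (SE 0.55) and by 1.88 more than Slc15a3 (SE 0.58), each with exact p = 0.10. With a pseudocount of 16, an alternative added after the data were seen, these gaps were 0.71 (SE 0.29) and 1.11 (SE 0.24). The change of the other Slc6a14 probe set minus this one was -1.56 (SE 0.33, exact p = 0.10), and -0.97 (SE 0.15) with the pseudocount of 16. Slc1a5 changed by 0.71 more than Slc15a3 (SE 0.26, exact p = 0.10; 0.68 with the pseudocount of 16). It changed by 0.53 more than Slc7a2 (SE 0.24, exact p = 0.20; 0.28), with overlapping groups. Slc6a14 1420504_at exceeded Slc1a5 by 1.17 (SE 0.54, exact p = 0.20, and 0.43 with the pseudocount of 16). Slc7a2 exceeded Slc15a3 by 0.18 (SE 0.34, exact p = 0.70, and 0.40), and neither gap was beyond the spread between arrays. For the dimmer 1420503_at the order was reversed, its change minus that of Slc1a5 being -0.39 (SE 0.26, exact p = 0.20). With the pseudocount of 16 this difference was -0.54 (SE 0.12), without overlap of the groups. The change of 1420503_at minus that of Slc7a2 was 0.15 (SE 0.30, exact p = 0.90), and minus that of Slc15a3 0.32 (SE 0.31, exact p = 0.30).

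**Figure D4:**
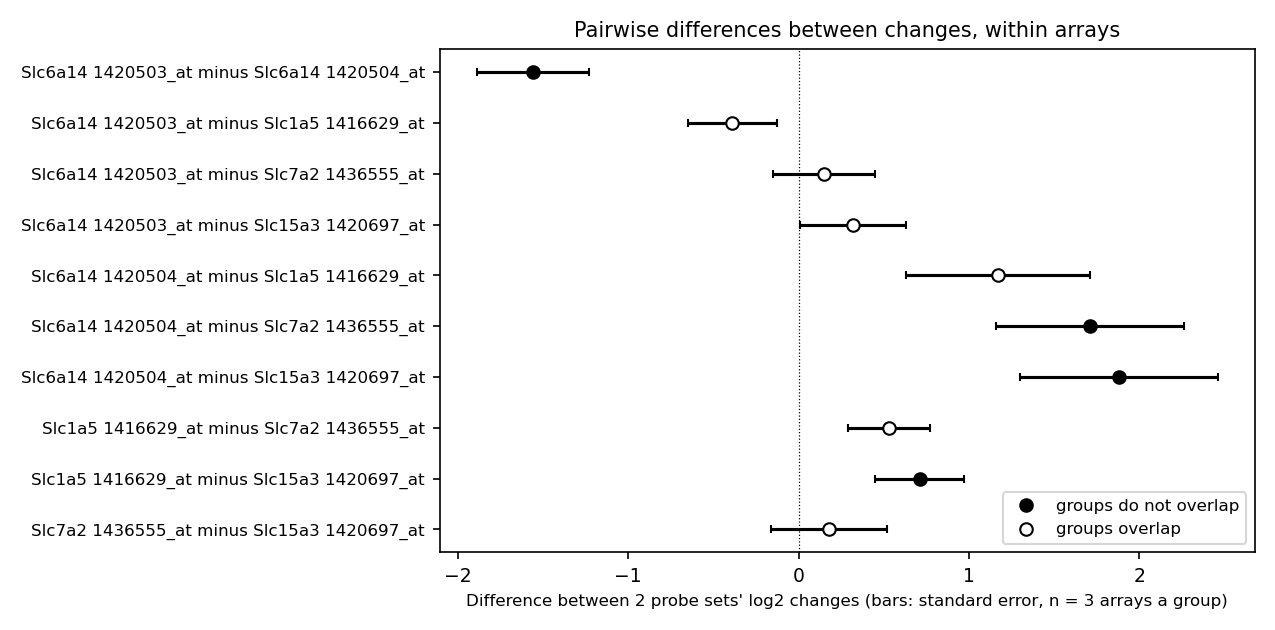
Difference between the log2 changes of 2 transporter probe sets, first minus second, from within-array ratios, with standard errors (3 arrays a group); filled points have groups that do not overlap. The 4 filled points lie at -1.56, 1.71, 1.88 and 0.71.

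Set against substrate class, the direction was the same for every class the 4 genes represent. The carrier of neutral amino acids (Slc1a5), that of cationic ones (Slc7a2), that of both (Slc6a14) and the peptide and histidine carrier (Slc15a3) were all higher in Stat3 d/d, in a table where 67.4% of probe sets were. With 1 gene a class, direction and class could not be tested against each other.

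Across 8 lists of amino acid, histidine and peptide carriers, 5 of 74 genes were in the table, 4 higher (the genes above) and 1 lower. The other 69, among them all 11 listed carriers of acidic amino acids and cystine, all 5 proton-coupled carriers of small amino acids and all 6 carriers of taurine, GABA and related compounds, were not analysed here. The lower one was Slc25a44, the mitochondrial carrier of branched-chain amino acids. It read 30.5, 34.7 and 26.4 in Stat3 f/f, and 19.3, 19.6 and 16 in Stat3 d/d. The change was -0.70 (SE 0.18), and -1.17 and -1.18 after median centring and quantile normalization (adjusted p = 0.00381, 0.000259 and 0.000278, limma). Both scalings lowered changes over the table, with the median going from 0.70 to 0.24 and 0.25, so a deeper fall was fixed in advance. The probe sets lower past the threshold were 451 as deposited and 451 after each scaling. Slc25a44 was the one listed amino acid carrier in the table that was lower, and the one from the mitochondrial list. Outside the lists, Slc25a33 (0.96) and Slc25a48 (0.79, and 1.27 on its dimmer probe set) of the same Slc25 family were higher. A link between location and direction was not tested.

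Beyond the listed carriers, the table held 19 genes with symbols beginning Slc, a group drawn after the values were seen. Of these, 14 were higher and 5 lower, with changes from -1.12 to 1.34 and a median of 0.77, beside 660 higher and 327 lower over all genes of the table. After median centring 7 were higher and 5 lower past the threshold, beside 30.5% and 32.6% of all probe sets.

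Of 45 genes listed for the use or sensing of amino acids, 3 were in the table, all higher (median 1.0). With 67.4% of all probe sets higher, at a median of 0.93 among those, these 3 are near the background. The list is not complete, and genes it leaves out moved both ways. For example, Gldc (2.08), Gatm (1.04) and Mios (0.71) were higher, and Prodh (-0.72), Hal (-0.70) and Fah (-0.63) lower. These examples were not picked by a rule, and how many unlisted genes moved each way was not counted. Arg2, the mitochondrial arginase that splits arginine into ornithine and urea, read 75.7, 37.3 and 60.9 in Stat3 f/f, and 141, 98.1 and 102 in Stat3 d/d (1.0, SE 0.26). Rragd, a Rag GTPase that places mTORC1 on the lysosome when amino acids are plentiful, changed by 1.02 (SE 0.23). Ido1, the interferon-induced enzyme that degrades tryptophan, was dim, at 3.42 to 4.58 against 5.62 to 9.33, with a change of 0.76 (SE 0.21). After median centring Rragd passed (0.56, adjusted p = 0.0434, limma), while Arg2 (0.53, adjusted p = 0.0734) and Ido1 (0.30, adjusted p = 0.228) did not. After quantile normalization Arg2 passed as well (0.62, adjusted p = 0.0406, limma). Of all probe sets, 30.5% and 31.5% were higher past the threshold under these scalings.

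Beside the peptide carrier Slc15a3, lists of peptide transport into the endoplasmic reticulum and of bacterial peptide sensing were looked at. Tap1 and Casp1 were in the table. Tap1, of the ATP-driven transporter that brings peptides into the endoplasmic reticulum for MHC class I, was the one gene of 4 listed there. It read 43.3, 56.7 and 55.7 in Stat3 f/f, and 181, 179 and 173 in Stat3 d/d (1.77, SE 0.17). Tap1 passed under both scalings, beside 30.5% and 31.5% of all probe sets called higher. Casp1, the inflammasome protease, was the one gene in the table from a short list of 9 around the sensing of bacterial peptides (NOD receptors, endosomal Toll-like receptors and inflammasome genes), which leaves out most other sensors, and changed by 0.98 (SE 0.24). It did not pass after median centring (0.51, adjusted p = 0.0789, limma).

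Markers of other cells moved between the groups together with these carriers. Of 23 listed macrophage and dendritic cell markers 9 were in the table, all higher, and their summed intensity was 347 to 532 in Stat3 f/f and 893 to 1941 in Stat3 d/d. Within Stat3 d/d that sum was 1941, 1104 and 893 in replicates 1, 2 and 3, the same order as Slc15a3, and within Stat3 f/f it was 532, 434 and 347 in replicates 1, 2 and 4, the opposite order. Of 18 T and NK cell markers 10 were in the table, all higher, with sums of 173 to 298 against 612 to 972. These counts stand beside 67.4% of all probe sets higher. After median centring 7 of the 9 and 9 of the 10 were higher past the threshold, beside 30.5% of all probe sets. In bulk RNA, more cells of a type and more RNA per cell cannot be told apart, and the part of these cells in the carriers' changes was not tested.

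As Slc6a14 is an epithelial carrier, epithelial markers are given beside it. The 2 in the table, Cldn3 and Cldn4, were higher, but neither passed after median centring. They summed to 516 to 815 in Stat3 f/f and 1028 to 1209 in Stat3 d/d. The gland markers Aldh1a1 and Lgr5 summed to 126, 119 and 481 in Stat3 f/f replicates 1, 2 and 4, against 46.9 to 56.5 in Stat3 d/d. Ovgp1, the only oviduct marker in the table, read 31.3, 21.8 and 7.42 in Stat3 f/f replicates 1, 2 and 4, the same order as Slc6a14 1420504_at. In Stat3 d/d Ovgp1 read 344, 494 and 240 in replicates 1, 2 and 3, where Slc6a14 was lowest in replicate 2. Their part in the change of Slc6a14 was not tested.

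The genes whose profile over the 6 arrays was most like each carrier were found among 946 named genes, by the root mean square difference of log2 values centred on Stat3 f/f. For Slc6a14 these were Rpgrip1 (0.19), Atm (0.33) and Tia1 (0.41), and for Slc1a5 H60c (0.17), Peli2 (0.17) and the citrate carrier gene Slc13a5 (0.19). For Slc7a2 they were Mios (0.11), Vegfc (0.12) and Rorb (0.12), and for Slc15a3 Gzmf (0.085), Cxcr3 (0.087) and Tmem71 (0.091). The likeness was rare for the larger changes and common for the smaller: within a difference of 0.25 lay 1 gene for Slc6a14, 16 for Slc1a5, 127 for Slc7a2 and 186 for Slc15a3. By Pearson correlation over the same 6 arrays, the nearest 3 shared 0, 0, 2 and 1 genes with these lists for Slc6a14, Slc1a5, Slc7a2 and Slc15a3. Both measures largely follow the contrast between groups. By the first, the nearest 3 changed by 2.61, 2.22 and 2.60 for Slc6a14, and by 0.60, 0.58 and 0.71 for Slc15a3.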

How the data were processed

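Biotin-labelled cRNA from 6 uterine RNA samples was put on Affymetrix arrays, per the labels' protocols. The submitters' processing notes name RMA, with no version. The deposited values are intensities on a linear scale, 1 for each probe set and sample. Since RMA works on the log2 scale, a return to the linear scale must have followed, which no label records. The genome build is likewise not given in the sources used here.

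Names came from the platform annotation, in which 1191 probe sets had 1 symbol, 57 several and 134 none. A gene with several probe sets is represented by the brightest, and each probe set of the 4 carriers is given. On log2(intensity + 1), the contrast of the 2 groups was fitted over all 1382 probe sets with lmFit and eBayes (limma 3.58.1, R 4.3.3), adjusted by Benjamini-Hochberg, at a threshold of 0.05. Related genes come from lists by substrate or role, and those most alike are the nearest 3 for each carrier. The carriers and lists were chosen with earlier results of these data known. The fit was tested on simulated data for this comparison, with 45000 probe sets and independent normal noise. Spreads and mean levels were drawn from the selected table, so the calls need not hold for an unselected array. The fit called 66 of 66 that were changed 4-fold, 38 of 67 changed 2-fold and 1 of 67 changed 1.5-fold. Of 44800 that were not changed it called 9. Figures used matplotlib 3.10.9. The alternatives were other scalings, pseudocounts and variance models, weighting of arrays, removal of the dimmest 25% of probe sets, single arrays left out, the replicate number as a block and 45000 assumed tests.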

Additional observations from a re-analysis of the deposited data

How the results depend on the processing

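All 5 carrier probe sets were higher in Stat3 d/d under each alternative that gave them a value. Since no probe set in the table has overlapping groups, only the scalings could have reversed a direction. Under the other alternatives the direction was fixed by the selection. Calls were lost only under the scalings and the assumed number of tests. For Slc6a14 1420503_at, Slc7a2 and Slc15a3 the changes were 0.45, 0.30 and 0.13 after median centring, 0.48, 0.34 and 0.15 after quantile normalization, and 0.92, 0.77 and 0.60, unaltered in size, with 45000 assumed tests. Of the 5 probe sets, 2 passed under each of these 3 settings. Leaving out the dimmest 25% of probe sets removed Slc6a14 1420503_at and Slc15a3, so that 3 were tested and 3 passed. Over all probe sets kept, 678 were higher and 358 lower past the threshold. Over the table, 422 probe sets were higher past the threshold after median centring, 436 after quantile normalization and 387 with 45000 assumed tests, where 131 were lower and 2 of the 4 listed amino acid carrier genes in the table passed. Leaving out each array gave 2.14 to 2.97 for Slc6a14 1420504_at, 0.80 to 1.11 for 1420503_at, 1.16 to 1.46 for Slc1a5, 0.60 to 0.93 for Slc7a2 and 0.48 to 0.68 for Slc15a3, with adjusted p-values (limma) from 4.57e-05 to 0.0336. With the replicate block, the contrast rests on replicates 1 and 2 alone, since Stat3 f/f replicate 4 and Stat3 d/d replicate 3 have no counterpart. The changes were then 0.77 and 2.13 for the Slc6a14 probe sets 1420503_at and 1420504_at, 1.11 for Slc1a5, 0.61 for Slc7a2 and 0.74 for Slc15a3. That fit draws on fewer arrays than the main one. In it 5 of 5 passed, beside 886 higher and 398 lower past the threshold among all 1382 probe sets. Only the numbers 1 and 2 occur in both groups, and deviations from the group means correlated at 0.088 and 0.028 between arrays of the same number. Between arrays of different numbers the correlations ran from -0.15 to 0.161. These values cannot tell whether the samples were paired, which the labels do not state. Dim readings limit Slc15a3 and both Slc6a14 probe sets. With a pseudocount of 16 their changes were 0.21 for Slc15a3, 0.34 for 1420503_at and 1.31 for 1420504_at. Those of Slc1a5 and Slc7a2 were 0.88 and 0.61. All 5 passed, beside 885 higher and 432 lower past the threshold among all 1382 probe sets.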
